A study of Mus musculus with 15 samples.

Results

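The Chd genes encode the chromodomain helicase DNA-binding proteins, ATP-driven enzymes that slide, space or evict nucleosomes. All 9 mouse family members, Chd1 to Chd9, were chosen by gene symbol and were found among the 21889 genes of the deposited gene count table. Their expression was followed in 15 poly(A) RNA-seq libraries from mouse cerebellum, 3 in each of 5 groups. The 4 groups of normal cells were labelled as cerebellar granule neuron precursors at E15.5, P1, P7 and P14. Of these, E15.5 carried the genotype label Math1-GFP and the postnatal ages were WT. The remaining group, MB, held medulloblastoma cells labelled Ptch1 heterozygous, with no age. All cells, tumour cells included, were enriched on Percoll gradients, so the libraries are bulk preparations in which fewer cells of a type and less RNA per cell cannot be told apart. The labels do not say whether replicates were separate animals, so p-values measure only the spread between these samples.

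Granule neuron precursors divide in the outer layer of the postnatal cerebellum, driven by Sonic hedgehog, before they exit the cell cycle and migrate inward as granule neurons. Mice with 1 working copy of Ptch1, the inhibitory Sonic hedgehog receptor, can develop medulloblastoma from these precursors. The Chd family falls into 3 branches. Chd1 and Chd2 act on transcribed chromatin, and Chd1 binds methylated histone tails at active promoters. Chd3, Chd4 and Chd5 are alternative ATPases of the NuRD complex, which couples remodelling to histone deacetylation, and developing cortex uses them at different stages of neuron formation. Chd6, Chd7, Chd8 and Chd9 form the remaining branch, in which Chd7 is the gene mutated in CHARGE syndrome and is needed for granule neuron precursors, and Chd8 is a recurrent autism gene.

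The promoter sequences of Chd4 and Chd5 are shown because these NuRD ATPases were the most and the least abundant members. Windows of 250 bases upstream of a start were taken from RefSeq (GRCm38.p6), in which 5 of the 9 members were matched: Chd4, Chd5, Chd6, Chd8 and Chd9. Every CG dinucleotide is in capitals. The Chd4 window is chr6:125095913-125096162 on the plus strand and the Chd5 window is chr4:152338404-152338653 on the plus strand.
Chd4: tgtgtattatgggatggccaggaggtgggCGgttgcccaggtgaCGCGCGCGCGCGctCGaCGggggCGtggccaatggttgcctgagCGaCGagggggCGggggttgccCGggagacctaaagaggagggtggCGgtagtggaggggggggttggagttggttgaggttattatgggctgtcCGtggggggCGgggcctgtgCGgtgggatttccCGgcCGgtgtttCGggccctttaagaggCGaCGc
Chd5: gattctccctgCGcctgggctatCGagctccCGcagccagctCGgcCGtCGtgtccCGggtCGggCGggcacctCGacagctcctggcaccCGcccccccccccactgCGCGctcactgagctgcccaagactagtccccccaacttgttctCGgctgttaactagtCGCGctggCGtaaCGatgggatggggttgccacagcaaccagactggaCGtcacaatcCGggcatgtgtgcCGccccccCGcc
The Chd4 window held 23 CG dinucleotides and the Chd5 window 22, against a median of 6 over 32851 windows of the same length. As many as in Chd4 were found in 13.3% of windows, and as many as in Chd5 in 14.8%. The Chd6, Chd8 and Chd9 windows held 19, 20 and 16, where the Chd8 window lies 20188 bases from the annotated start of the transcript counted here. The start used for the Chd5 window lies 233 bases from the annotated start of the transcript counted here, and that for Chd4 1 base. The Chd4 and Chd5 windows were thus of like CG density, although the transcript levels of these NuRD ATPases differed as described next. The motif CAGCTG, which reads the same on both strands, was found once in the Chd9 window and not in the other 4, and 13.001% of all windows held it.

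Levels of different genes were compared as CPM per kilobase of exon, where CPM is the count scaled to a common library size. Chd4 was the highest member in each of the 5 groups, with group means from 84.8 CPM per kb at P14 to 164 in MB, where it ranked at percentile 98.3 of 14494 genes. Chd7 came next in every group, with 54.3 CPM per kb at E15.5 and 93.4 in MB. Chd5 was the lowest member in every group, from 6.63 CPM per kb at E15.5 to 0.555 in MB. Among the rest, Chd3 ranked 3 at E15.5 (53.3 CPM per kb) but 5 at P1 (20.3) and 6 in MB (25.0). The summed level of the 9 genes was 320 ± 96.9 CPM per kb at E15.5 (SD, n = 3) and 409 ± 81.9 in MB, with 272 ± 9.84 at P1, 336 ± 39.4 at P7 and 258 ± 54.5 at P14. The P14 sum (209 to 316 in single libraries) lay below every MB sum (352 to 503), while the MB range overlapped those at E15.5 and P7.

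**Figure D1:**
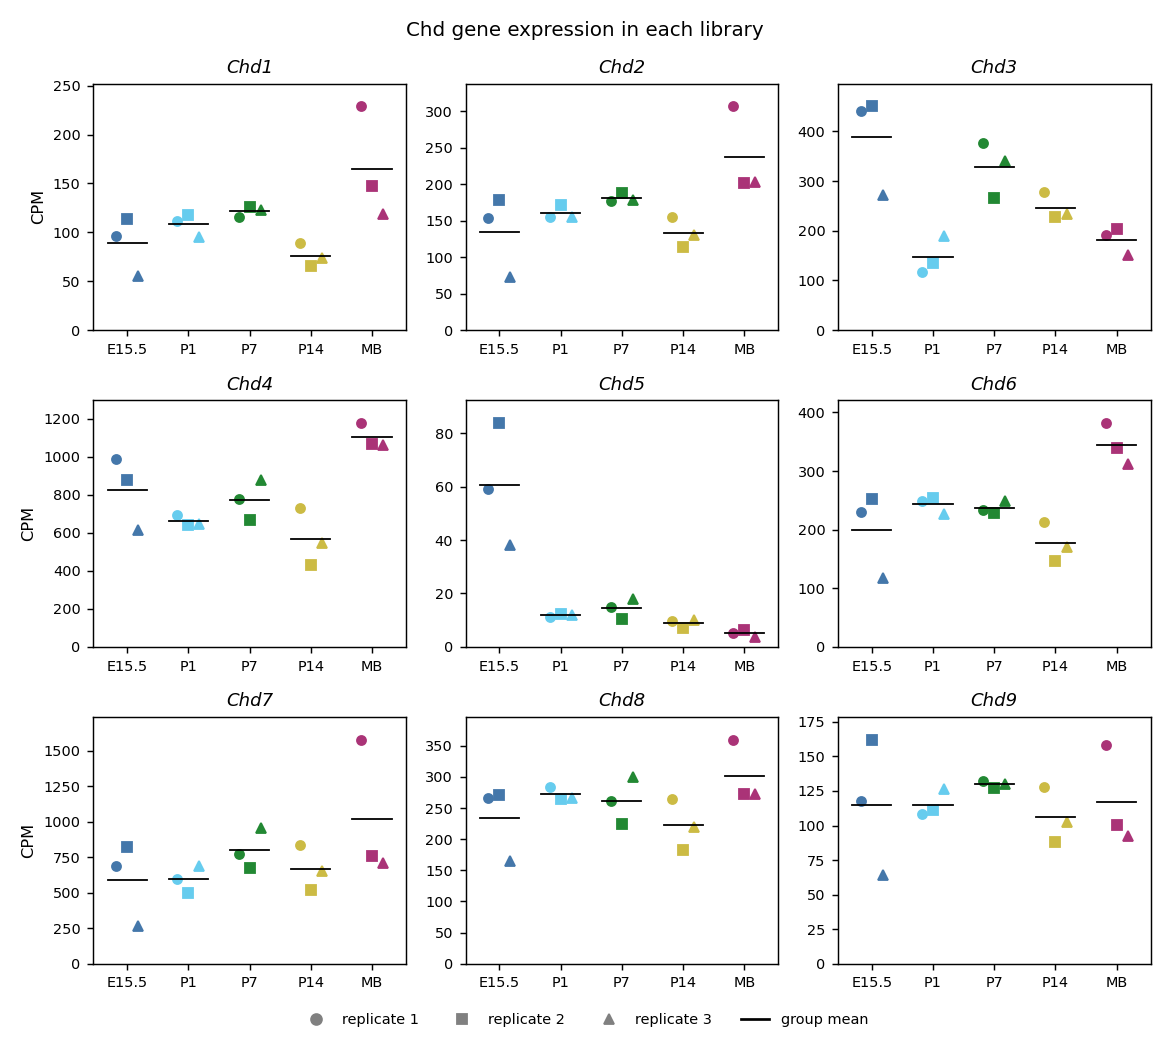
CPM of each Chd gene (vertical axes, from 0) in the 15 libraries by group, with 1 symbol shape per replicate number and a bar at the group mean. Chd5 was at 38.2 to 83.9 CPM at E15.5 and between 3.72 and 17.95 CPM in all other libraries, Chd3 was low at P1 and in MB, and Chd1, Chd2, Chd4, Chd6, Chd7 and Chd8 had their highest group mean in MB.

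Counts in genes ranged from 12597472 to 43443132 per library. The library labelled P1 replicate 3 stood apart from its group and lay near P14 on the first principal component (score 68.8, against 14.5 and 51.7 for the other P1 libraries and 83.4 to 90.2 at P14). It held 102 CPM of Gabra6, a gene of mature granule neurons, against 1.12 and 12.5 CPM in the other P1 libraries. Calls of the members that changed without it are given beside the result, while the partner and marker lists were not run without it. Other libraries differed from their group in single markers. MB replicate 1 held 208 CPM of Gli1, a Sonic hedgehog target, against 781 and 651 CPM in the other MB libraries, and 45.5 CPM of Grin2c against 0.757 and 0.921. The summed choroid plexus markers were 298, 10373 and 3909 CPM in P1 replicates 1 to 3. Without MB replicate 1, 3 members were called in MB against P14 (Chd1, Chd4 and Chd6) and 2 in MB against P7. Of 15474 genes, 7794 were then called in MB against P14 and 5846 in MB against P7. The granule lineage marker Zic1 was between 883 and 2182 CPM in all 15 libraries, while other precursor markers differed between groups. Atoh1 was 124 to 138 CPM at E15.5, 24.5 to 65.4 at P1 and 23.6 to 39.1 at P7. It was 10.9 to 13.1 CPM at P14 and 236 to 322 in MB. Gabra6 was 161 to 202 CPM at P14, against 2.54 to 10.3 at P7. Markers of other cell types also differed between groups. The summed oligodendrocyte markers were 5394 to 5869 CPM at P14, against 67.9 to 102 at E15.5 and 584 to 3540 at P1. They were 894 to 1741 CPM at P7 and 652 to 957 in MB. The summed level of 7 astroglial markers was 188 to 489 CPM at E15.5 and 1321 to 2084 in MB, against 3524 to 5334 at P1, 2786 to 5899 at P7 and 4935 to 6270 at P14. Endothelial (6 of 6), mural and meningeal (7 of 7), oligodendrocyte (8 of 8) and choroid plexus (5 of 5) markers, and 7 of 8 microglial markers, were called higher at P1 than at E15.5. In MB, 6 of 7 astroglial, 6 of 6 endothelial and 7 of 7 mural and meningeal markers were lower than at P7, and 5 of 8 microglial markers were higher. The part of these cells in the Chd results was not tested.

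The steps of the time course, and MB against P7 and P14, were tested for all 15259 expressed genes, among them all 9 members, with edgeR's quasi-likelihood test and Benjamini-Hochberg adjustment (FDR, called under 0.05). From E15.5 to P1, 2 members fell, Chd3 and Chd5, and none rose, where 46.3% of all genes were called (25.4% higher and 20.9% lower). From P1 to P7, Chd3 rose and the other 8 were not called, where 3.15% of all genes were called (1.4% higher and 1.74% lower). From P7 to P14 no member was called at this threshold, 2 had an unadjusted p under 0.05 (Chd1 and Chd5) and DESeq2 called 0, where 10.3% of all genes were called (5.81% higher and 4.51% lower). All 9 point estimates were below 0 at that step, between -0.68 and -0.24 on the log2 scale, with a median of -0.43 against -0.00499 for all genes. Between P1 and P14 no member was called, 1 had an unadjusted p under 0.05 (Chd3) and DESeq2 called 1 (Chd3), against 8.94% of all genes called (3.63% higher and 5.31% lower). Between E15.5 and P14, Chd3 and Chd5 were lower, where 50.9% of all genes were called (26.7% higher and 24.2% lower). In the joint test of the 4 ages, 2 members were called, Chd3 (edgeR FDR = 9.99e-04) and Chd5 (FDR = 5.26e-06), where 55.7% of all genes were called. E15.5 differs from the later ages in its genotype label as well as in age, and the 2 cannot be told apart. All P7 libraries fall in a different counting set, described with the processing, from all P1 and P14 libraries. In P7 against P1 and P14 against P7 the set and age cannot be told apart.

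In MB, 2 members were lower than at P7, Chd3 and Chd5, and none was higher, where 34.5% of all genes were called (13.7% higher and 20.7% lower). Against P14, 5 members were called: Chd1, Chd2, Chd4 and Chd6 were higher and Chd5 was lower, where 50% of all genes were called (22.9% higher and 27.2% lower). The share of members called against P14 was thus close to the share of all genes. The median log2 change of the 9 members was 0.34 against P7 and 0.60 against P14, beside 0.02 and 0.01 for all genes tested. The groups did not overlap for 5 members against P7 (41.6% of all genes) and for 7 against P14 (61.4% of all genes). Both MB comparisons share the MB libraries.

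**Figure D2:**
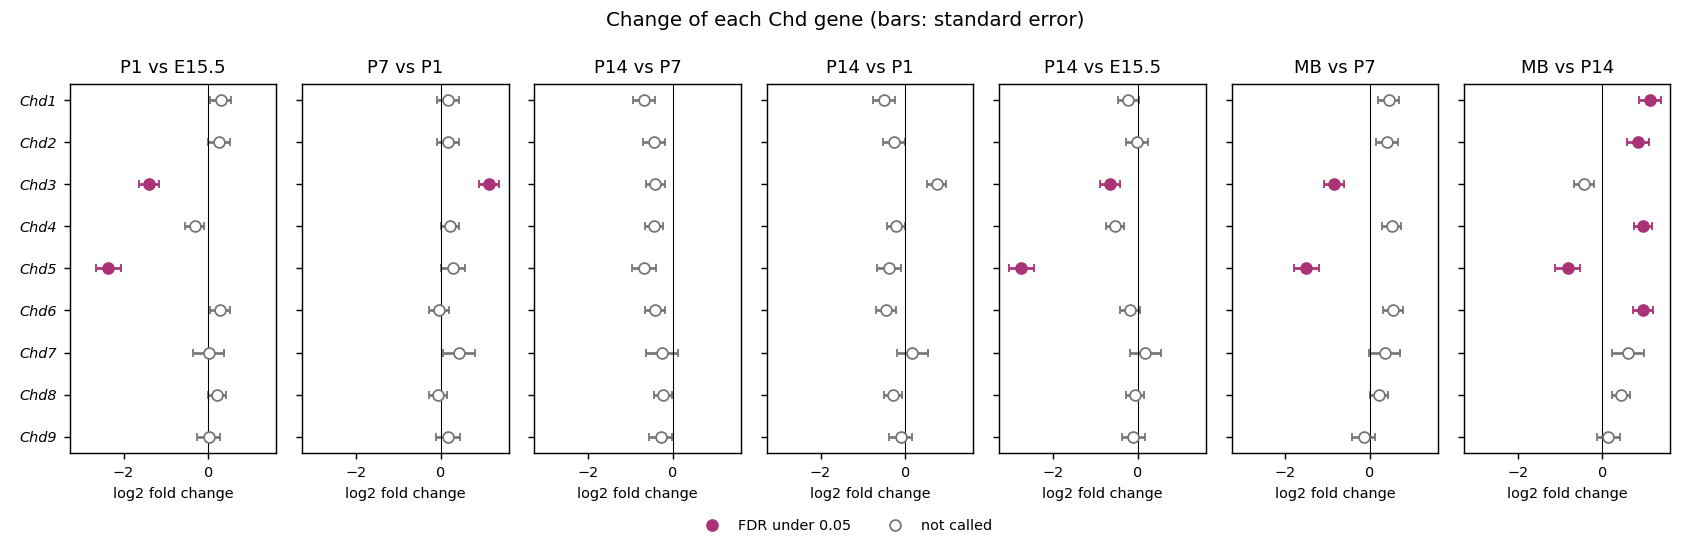
Log2 fold change of the 9 Chd genes in each of 7 contrasts (first group over second), with the standard error as a bar. Filled symbols were called at an FDR under 0.05: Chd3 and Chd5 in P1 vs E15.5, P14 vs E15.5 and MB vs P7, Chd3 alone in P7 vs P1, and Chd1, Chd2, Chd4, Chd5 and Chd6 in MB vs P14.

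Chd5 (ENSMUSG00000005045, mm9 chr4:151712996-151764290, plus strand) encodes the NuRD ATPase that is enriched in neurons and is known as a tumour suppressor. It had 59.3, 83.9 and 38.2 CPM in E15.5 replicates 1 to 3, and 11.03, 12.3 and 12.1 CPM at P1. At P7 it had 14.8, 10.6 and 17.95 CPM, at P14 9.71, 7.20 and 10.1 CPM, and in MB 5.08, 6.38 and 3.72 CPM. Every E15.5 library lay above every library of the other groups, and every MB library lay below every normal one. Even the lowest level rested on 93 reads in MB replicate 3, against 1005 to 1454 reads at E15.5. The fall from E15.5 to P1 was 5.12-fold (log2 fold change -2.36, SE 0.30, edgeR FDR = 2.38e-05) and that from E15.5 to P14 was 6.71-fold (log2 -2.75, SE 0.30, edgeR FDR = 4.47e-06). MB was 2.84-fold lower than P7 (log2 -1.51, SE 0.30, edgeR FDR = 0.00100) and 1.77-fold lower than P14 (log2 -0.83, SE 0.29, edgeR FDR = 0.0289). The highest group mean was 11.96 times the lowest. The call against P14 was lost with the length and GC correction (log2 -0.39, edgeR FDR = 0.134), with a term for the counting set (FDR = 0.0781), and without P14 replicate 1 or 3 or MB replicate 1 or 3 (log2 -0.82 to -0.65, FDR = 0.0524 to 0.109). The calls against E15.5 and of MB against P7 held in every alternative.

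Most markers of GABAergic interneurons, another neuron type of the cerebellum, were also lower in the comparisons where Chd5 was called lower. Of 7 such genes, 6 were called lower and 1 higher at P1 than at E15.5, and 6 were lower in MB than at P7. In MB against P14, 6 were lower and 1 was higher, while the summed levels overlapped. Of all genes, 20.9%, 20.7% and 27.2% were called lower in these comparisons. Other lists were also mostly lower in MB. Of 8 Purkinje cell markers, 6 were lower and 1 higher against both P7 and P14, but 2 were lower and 2 higher at P1 than at E15.5. The summed level of the interneuron markers was 577 to 695 CPM at E15.5 and 320 to 374 in MB. It was 350 to 416 at P1, 431 to 697 at P7 and 272 to 368 at P14. The MB sum was almost all Lhx1 (318 to 372 CPM), while Gad1, which makes the transmitter GABA, was between 0.961 and 2.26 CPM and Pax2 was at 0 in 2 of the 3 MB libraries. The part of these cells in the Chd5 level was not tested.

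Chd3 (ENSMUSG00000018474, mm9 chr11:69156775-69182928, minus strand) is the NuRD ATPase tied in cortex to late steps of neuron migration. Its level was 442, 451 and 272 CPM at E15.5, then 117, 136 and 190 CPM at P1. It was 377, 266 and 340 CPM at P7, 278, 227 and 233 CPM at P14, and 191, 204 and 151 CPM in MB. The 3 P1 libraries were below every library of the other normal ages, and they overlapped MB. The fall from E15.5 to P1 was 2.63-fold (log2 -1.39, SE 0.24, edgeR FDR = 2.49e-04), and it was called in all alternatives, at log2 -1.62 without P1 replicate 3. The rise from P1 to P7 was 2.22-fold (log2 1.15, SE 0.23, edgeR FDR = 0.0214). Without P1 replicate 3 it was 1.38 (FDR = 0.00823). Without P1 replicate 1 or 2 or any 1 of the P7 libraries it was no longer called (log2 1.01 to 1.28, FDR = 0.0509 to 0.130). Nor was it called with a term for the counting set (FDR = 0.0712). Calls over all genes fell as well, from 480 to 294 and 9 without P1 replicates 1 and 2. They fell to 106, 21 and 156 without P7 replicates 1 to 3, and to 197 with the term for the set. P14 was above P1 by 0.74 on the log2 scale without a call (edgeR FDR = 0.0591). The call was made without P1 replicate 3 (log2 0.96, FDR = 0.0152), where 2714 genes were called against 1364 with all libraries. P14 was 1.58-fold lower than E15.5 (log2 -0.66, SE 0.23, edgeR FDR = 0.0273), with overlapping libraries, and this call was lost without E15.5 replicate 1 or 2 or P14 replicate 2 or 3 (FDR = 0.0833 to 0.0945). In MB, Chd3 was 1.80-fold lower than at P7 (log2 -0.85, SE 0.23, edgeR FDR = 0.0100), with no overlap, and the call was lost without P7 replicate 1 (log2 -0.69, FDR = 0.0545). Against P14 it was not called (log2 -0.43, edgeR FDR = 0.131).

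Chd4 (ENSMUSG00000063870, mm9 chr6:125045999-125080609, plus strand), the main NuRD ATPase of dividing cells and a regulator of granule neuron connectivity, changed less with age. It had 988, 880 and 614 CPM at E15.5, 696, 643 and 645 at P1, 781, 666 and 877 at P7, and 731, 434 and 545 at P14. In MB it had 1179, 1067 and 1063 CPM, above every normal library. MB was 1.94-fold above P14 (log2 0.95, SE 0.22, edgeR FDR = 0.00208), a call held in every alternative. Against P7 the difference of 0.51 (SE 0.22) was not called (edgeR FDR = 0.0841), and the libraries did not overlap. P14 against E15.5 lay next to the threshold (log2 -0.54, edgeR FDR = 0.0507) and was called by DESeq2 (FDR = 0.0352) and with 5 other settings. The lowest FDR came with the length and GC correction (log2 -0.79, edgeR FDR = 2.77e-04). P1 against E15.5 was not called (log2 -0.32, edgeR FDR = 0.237). It was called with that correction (log2 -0.49, FDR = 0.00991) and without E15.5 replicate 3 (log2 -0.55, FDR = 0.0466).

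The make-up of the NuRD ATPase transcripts is read from the share of each gene in the sum of Chd3, Chd4 and Chd5 per kb. Chd4 made up 86.6% ± 1.79 in MB (SD, n = 3) and 82.1% ± 3.99 at P1, against 67.4% ± 2.25 at E15.5, 71.3% ± 2.39 at P7 and 70.5% ± 3.37 at P14. Chd3 made up 13.2% ± 1.72, 16.9% ± 3.96, 29.0% ± 1.41, 27.8% ± 2.42 and 28.7% ± 3.34 in the same order. The Chd3 share was thus between 11.5% and 21.1% in all P1 and MB libraries and between 25.8% and 32.3% in all others. Chd5 made up 3.58% ± 0.844 at E15.5 and 0.292% ± 0.0740 in MB, with 1.08% ± 0.0797 at P1, 0.967% ± 0.126 at P7 and 0.835% ± 0.125 at P14. These 3 genes are paralogs counted from unique alignments, and the shares were not tested.

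**Figure D3:**
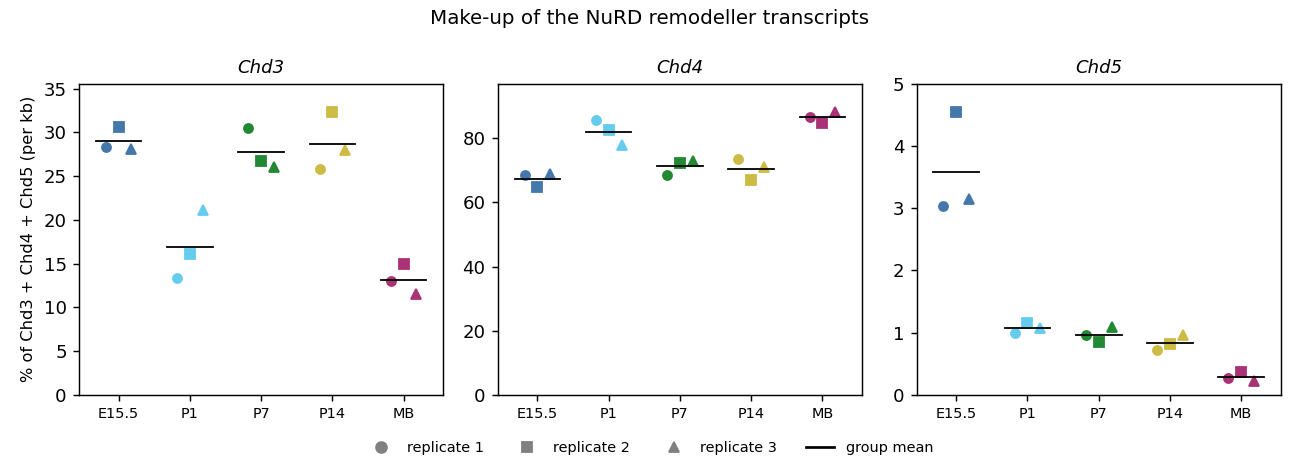
Share of Chd3, Chd4 and Chd5 in their summed level per kb (percent, vertical axes from 0, a different scale for each gene) in the 15 libraries, with a bar at the group mean. Chd3 stood at 11.5% to 21.1% at P1 and in MB and at 25.8% to 32.3% elsewhere, and Chd5 was highest at E15.5 and lowest in MB.

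Chd1 (ENSMUSG00000023852, mm9 chr17:15841931-15909574, plus strand) and Chd2 (ENSMUSG00000078671, mm9 chr7:80571577-80686632, minus strand) had the same order of MB, P7 and P1 as their 3 highest group means. Chd1 had 96.5, 114 and 55.7 CPM at E15.5, 112, 118 and 95.0 at P1, 116, 126 and 123 at P7, 88.7, 65.9 and 73.5 at P14, and 229, 147 and 119 in MB. All P14 libraries lay below all P1, P7 and MB libraries. MB exceeded P14 by 2.17-fold (log2 1.12, SE 0.26, edgeR FDR = 0.00220), a call held in every alternative, while the lower level at P14 than at P7 was not called (log2 -0.68, SE 0.26, edgeR FDR = 0.0997). Chd2 had 154, 178 and 73.0 CPM at E15.5, 155, 171 and 155 at P1, 177, 187 and 178 at P7, 155, 114 and 130 at P14, and 307, 202 and 203 in MB. Every MB library was above every normal one. MB was 1.78-fold above P14 (log2 0.84, SE 0.26, edgeR FDR = 0.0155), and the call was lost without MB replicate 1 (log2 0.61, FDR = 0.0703), the highest library, or without P14 replicate 2 (log2 0.73, FDR = 0.0666). Neither gene was called in MB against P7 (log2 0.44 and 0.39, edgeR FDR = 0.209 and 0.273).

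Chd6 (ENSMUSG00000057133, mm9 chr2:160772714-160934758, minus strand) was the member of the Chd6 to Chd9 branch with a call. It had 230, 252 and 118 CPM at E15.5, 249, 254 and 226 at P1, 234, 228 and 249 at P7, and 213, 147 and 171 at P14. In MB it had 382, 339 and 312 CPM, above all normal libraries. MB was 1.95-fold above P14 (log2 0.96, SE 0.23, edgeR FDR = 0.00298), held in every alternative, and 0.54 above P7 on the log2 scale without a call (SE 0.23, edgeR FDR = 0.0870).

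Chd7 (ENSMUSG00000041235, mm9 chr4:8617617-8794806, plus strand) was abundant and varied widely within groups, and it was called in none of the comparisons before the correction for length and GC described below. It had 692, 820 and 263 CPM at E15.5, 600, 499 and 690 at P1, 774, 675 and 958 at P7, 839, 521 and 650 at P14, and 1580, 760 and 710 in MB. The E15.5 libraries spanned the whole range of the P1 libraries, and MB replicate 1 alone was above every normal library. The MB mean of 1017 ± 488 CPM (SD, n = 3) exceeded that at P14 by 0.60 on the log2 scale (SE 0.37, edgeR FDR = 0.194). Over the alternatives this estimate lay between 0.14, without MB replicate 1, and 0.92. Against P7 it was 0.34 (SE 0.37, edgeR FDR = 0.519), and between -0.13, again without MB replicate 1, and 0.70 over the alternatives.

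Chd8 (ENSMUSG00000053754, mm9 chr14:52817826-52857247, minus strand) and Chd9 varied least between groups, with a highest group mean 1.36 and 1.22 times the lowest. Chd8 had 266, 270 and 166 CPM at E15.5, 285, 265 and 266 at P1, 262, 224 and 300 at P7, 265, 182 and 220 at P14, and 360, 272 and 273 in MB. Chd8 in MB was above P14 in every library without a call (log2 0.44, SE 0.21, edgeR FDR = 0.0952). Chd9 (ENSMUSG00000056608, mm9 chr8:93352734-93578407, plus strand) had 118, 162 and 64.4 CPM at E15.5, 108, 111 and 126 at P1, 132, 127 and 130 at P7, 128, 88.1 and 103 at P14, and 158, 101 and 92.2 in MB. Its MB libraries overlapped both P7 and P14, with log2 differences of -0.15 and 0.14 (edgeR FDR = 0.725 and 0.700).

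The spread within groups was shared by the members. E15.5 replicate 3 was the lowest of its group for 9 of 9 members, and P14 replicate 2 the lowest of its group for 9 of 9. E15.5 replicate 2 was the highest for 8 members, P14 replicate 1 for 8 and MB replicate 1 for 7. All members have long transcripts, with 6718 to 11565 bases of exon, so the same deviations, of log2(CPM + 0.5), were computed for the other genes of at least 6718 bases (1080 of the 11199 genes that averaged 5 CPM or more). In E15.5 replicate 3 the members had a median deviation of -0.60 from the group mean on the log2 scale and the other long genes one of -0.48, against 0.07 for all genes. In P14 replicate 1 the values were 0.27, 0.22 and -0.01, and in MB replicate 1 they were 0.27, 0.17 and 0.01. Long genes thus deviated in the same direction as the members in these libraries. Between group means, the median log2 difference of the long genes was 0.31 in P1 against E15.5, where that of the members was 0.16, and 0.20 in P14 against E15.5, where that of the members was -0.12. It was 0.04 in P7 against P1 (members 0.17), -0.15 in P14 against P7 (members -0.44) and -0.10 in P14 against P1 (members -0.28). In MB it was -0.09 against P7 (members 0.26) and 0.01 against P14 (members 0.53).

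**Figure D4:**
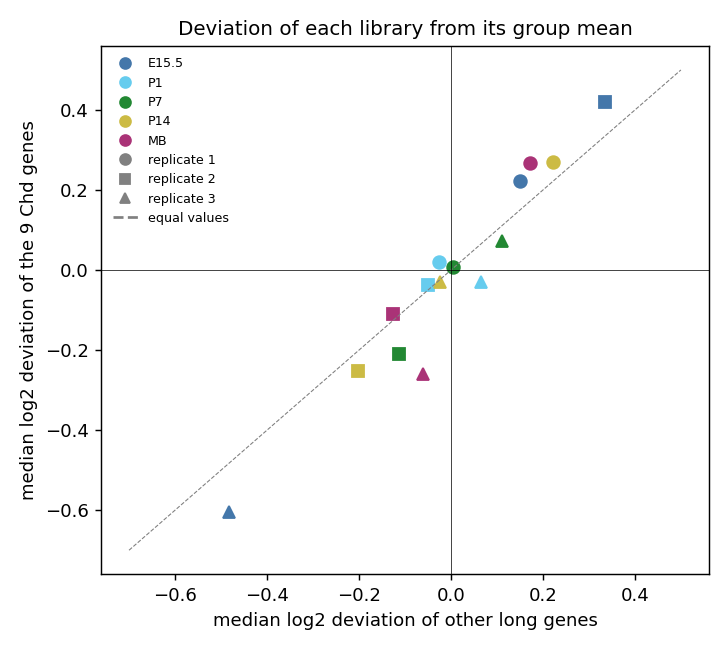
Median log2 deviation from the group mean of the 9 Chd genes (vertical axis) and of the other genes with at least 6718 bases of exon (horizontal axis) in each of the 15 libraries. Color gives the group, symbol shape the replicate number and the dashed line equal values. E15.5 replicate 3 is lowest on both axes (-0.60 and -0.48) and E15.5 replicate 2 highest (0.42 and 0.34).

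A smooth correction of every library for gene length and GC content raised the number of members called in 5 of the 7 contrasts and left it at 1 in P7 against P1 and at 0 in P14 against P1. In MB against P7 it gave 8 members called, 6 of them higher, where 43.9% of all genes were then called. The corrected differences were 0.74 for Chd6, 0.73 for Chd4, 0.70 for Chd7, 0.55 for Chd2, 0.50 for Chd1 and 0.34 for Chd8 on the log2 scale (edgeR FDR = 1.33e-04 to 0.0465). Chd3 (log2 -0.50) and Chd5 (log2 -1.09) stayed lower, and Chd9 was at -0.00256. Against P14 it gave 6 members higher, Chd7 (0.92) and Chd8 (0.44) included, and none lower, where 58.5% of all genes were called. In P14 against E15.5 it gave 7 members lower, where 59.4% of all genes were called. It gave 4 members lower in P1 against E15.5 (52.4% of all genes called), 3 lower in P14 against P7 (18.6%) and 6 called over the 4 ages (65.7%). The correction also turned Chd9 in P1 against E15.5 from 0.00660 to -0.44 (FDR = 0.00478). Whether the correction removes a technical or a real difference between libraries was not tested.

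Reads over short transcript models were set against the longest model of the same gene. For Chd1, reads over a model with 23 of the 36 exons came to 44.1% to 49.9% of those over the longest model at E15.5 and to 53.1% to 62.5% in all other libraries. For Chd7, reads over a model with 3 exons, against 38 in the longest, came to 10.2% to 29.8%. The lowest Chd7 value was in MB replicate 1, the library with the highest Chd7 CPM, and the highest was in P7 replicate 3. A read over both models counts for each, so these are ratios of overlapping counts and not isoform fractions.

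The partners that share complexes with the Chd proteins were followed from lists. Their counts are read against the shares of all genes called. These were 46.3% in P1 against E15.5 (25.4% higher and 20.9% lower) and 10.3% in P14 against P7 (5.81% and 4.51%). In MB they were 34.5% against P7 (13.7% and 20.7%) and 50% against P14 (22.9% and 27.2%). Of 11 NuRD partners tested, 3 fell from E15.5 to P1, where 20.9% of all genes fell: the deacetylase Hdac2 (log2 -0.87, edgeR FDR = 0.00107), the scaffold Mta2 (-0.71, FDR = 0.00327) and the methyl-CpG-binding Mbd2 (-1.04, FDR = 0.0119). From P1 to P7 none was called by edgeR, 5 had an unadjusted p under 0.05 and DESeq2 called 1, and 2 fell from P7 to P14, Hdac1 (-1.12) and Mta2 (-0.59). In MB against P14, 7 of 11 were higher and none lower, where 22.9% of all genes were higher and 27.2% lower, among them Mta2 (0.88), Gatad2a (0.77), Rbbp7 (0.68) and Mta1 (0.85), while in MB against P7 none was called by edgeR, 3 had an unadjusted p under 0.05 and DESeq2 called 2. The list median was 0.59 in MB against P14 and 0.20 against P7, beside 0.01 and 0.02 for all genes. Chd4 was likewise higher in MB against P14, and Chd3 was lower against P7.

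Of 11 ATPases of other remodeller families, Smarca1 (log2 -1.01, edgeR FDR = 1.89e-04), an ISWI enzyme, and Smarca4 (-1.12, FDR = 3.48e-04), the BAF enzyme Brg1, fell from E15.5 to P1, and Smarca5 (0.63) and Chd1l (0.70) rose. In MB against P14, Hells (2.30) and Smarcad1 (1.39) were higher, as was Chd1l (0.82), and 2 genes were lower, among them Smarca1 (-0.58). These 5 of 11 compare with 50% of all genes called. In MB against P7, Smarcad1 (0.93) and Hells (1.01) were higher and Smarca1 (-0.88) was lower. Of 13 ISWI and INO80 accessory subunits, 4 fell from E15.5 to P1 and none rose, where 20.9% of all genes fell and 25.4% rose. In MB against P14, 6 of the 13 were higher and none lower, where 22.9% of all genes were higher and 27.2% lower. Cecr2 (1.96), Baz1a (1.44), Ruvbl1 (1.27) and Ruvbl2 (1.09) had the lowest FDR. In MB against P7, 3 were higher, Ruvbl1 (1.16), Cecr2 (1.16) and Ruvbl2 (0.81). Of 8 elongation and promoter partners of Chd1, 4 fell and 1 rose from E15.5 to P1 (46.3% of all genes called). From P7 to P14, 3 fell (4.51% of all genes fell). In MB against P14, 4 of the 8 were higher and none lower, where 22.9% of all genes were higher and 27.2% lower. The higher genes included the FACT subunits Ssrp1 (1.14) and Supt16 (0.93). In MB against P7 none of these 8 was called by edgeR, 0 had an unadjusted p under 0.05 and DESeq2 called 0.

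Of 13 factors reported to work with Chd7 or Chd8, 3 rose and 2 fell from E15.5 to P1, where 46.3% of all genes were called, with the neural progenitor gene Sox2 (log2 1.91, edgeR FDR = 1.81e-04) up and Sox4 (-0.996) and Ash2l (-0.71) down. In MB against P7, 3 were higher, Trp53 (0.93), Olig2 (1.21) and Wdr5 (0.48), and 1 was lower, where 34.5% of all genes were called. The list median there was -0.01. In MB against P14, 6 were higher and none lower, where 22.9% of all genes were higher and 27.2% lower. Wdr5 (0.87), Trp53 (1.17), Rbbp5 (0.59) and Ash2l (0.59) had the lowest FDR. The granule precursor markers stood higher in MB than at P14 for 7 of 10 genes and lower for 2, and maturing granule neuron markers were lower for 9 of 10. The part of this difference in cell state in the Chd values was not tested.

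The genes whose pattern was most like that of Chd3, Chd5 and Chd7 were named by Pearson's r of log2 CPM over the 15 libraries among 11567 genes, as a description. For Chd3 they were Smurf1 (r = 0.93), Tmem127 (r = 0.93) and Smarcc2 (r = 0.91), a BAF subunit with group means of 722, 334, 670, 427 and 436 CPM from E15.5 to MB. For Chd5 they were Nwd2 (r = 0.97), the nicotinic receptor subunit Chrna4 (r = 0.97) and the protocadherin Pcdh8 (r = 0.96), with Chrna4 at 38.4 CPM at E15.5, 5.96 at P1 and 3.18 in MB. For Chd7 they were Med12 (r = 0.95), a Mediator kinase module subunit, Osbp (r = 0.95) and the coactivator Ncoa2 (r = 0.95). The libraries of a group share their cell make-up and each library its depth, so these values are not independent points.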

How the data were processed

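The authors deposited raw read counts per gene, per start site model and per transcript for 15 libraries. Per the submitters' processing notes, Trimmomatic, TopHat, StringTie, HTSeq and mm9 were used, and versions and the strand setting are not given in the sources used here. Gene counts made up 39.5% to 55.4% of the records of a library. The HTSeq summary lines name no gene and were left out of library sizes. Positions are those of the transcript table, in mm9.

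The gene table was analysed with edgeR 4.0.16 in R 4.3.3: filterByExpr (minimum count 10, minimum total 15), TMM scaling, and a quasi-likelihood fit with 1 mean per group over all 15 libraries (10 residual degrees of freedom), adjusted over 15259 genes. The SE is the log2 fold change divided by the square root of F. CPM use TMM-adjusted library sizes, with a prior count of 2 on the log2 scale. Length is the union of exons. Alternatives were DESeq2 1.42.0, RLE scaling, no filter, the other count tables (the start site table held 7 members), fits on the compared groups, a replicate block, a term for the counting set, a loess correction for length and GC (span 0.5), and leaving out each replicate. The counting set separates 6 libraries, where at most 0.273% of Tsnax transcript reads appear in the gene table, from 9 with at least 92.4%. For the members this share was 90.2% to 100.4% in both sets. The 6 libraries are all those of P7, E15.5 replicates 1 and 3, and MB replicate 1. All P1 and P14 libraries are in the other set. The set and age thus change together in P7 against P1 and in P14 against P7. The term for the set is estimated from the E15.5 and MB libraries only.

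All 9 members are named. From each partner list at most 4 called genes with the lowest FDR per contrast are named (1 such gene is not reported here), and for Chd3, Chd5 and Chd7 the 3 genes with the highest r and a mean of at least 5 CPM. The members and lists were chosen with earlier results of these data known. The script was tested on simulated data.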

Additional observations from a re-analysis of the deposited data

How the results depend on the processing

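Of the log2 fold changes of single members under the alternatives, 881 kept their direction or stayed uncalled, 30 gained a call, 19 lost one and 1 turned its sign with a call (Chd9, P1 against E15.5, -0.44 with the length and GC correction). With that correction the number of members called was 4 in P1 against E15.5, 3 in P14 against P7 and 7 in P14 against E15.5. It was 8 in MB against P7 and 6 over the 4 ages. The shares of all genes called with it were 52.4%, 18.6%, 59.4%, 43.9% and 65.7% in the same order. With a term for the counting set, the number of members called was 0 in P7 against P1, where 197 of 15259 genes were called. On the compared groups alone it was 1 in P14 against P7 (3838 of 14810 genes called) and 2 in P14 against P1 (4089 of 14833). In P14 against P1 DESeq2 gave 1, where it called 2407 of 15030 genes. The causes of these changes were not tested. Leaving out 1 replicate gave 2 to 3 members called in P1 against E15.5, where 5666 to 6890 of all genes were called. It gave 0 to 1 in P7 against P1 (9 to 888 genes) and 0 in P14 against P7 (125 to 1077). In P14 against P1 it gave 0 to 1 (154 to 2714) and in P14 against E15.5 1 to 4 (6484 to 7598). In MB it gave 1 to 2 against P7 (4387 to 5846) and 3 to 5 against P14 (6462 to 7794). Over the 4 ages it gave 2 to 4 (7248 to 8518). With all libraries, 480 genes were called in P7 against P1, 1574 in P14 against P7 and 1364 in P14 against P1.

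Deviations of same-numbered replicates from their group means had r from -0.10 to 0.27, -0.31 to 0.22 and -0.26 to 0.33 for numbers 1, 2 and 3. Differently numbered replicates were not set beside them. Whether the numbers pair some of the samples therefore cannot be decided from these values. With the replicate block, 2 members were called in P1 against E15.5, 1 in P7 against P1 and 0 in P14 against both P1 and P7. There were 3 in P14 against E15.5, 2 in MB against P7, 5 in MB against P14, and 2 over the 4 ages. Of 15259 genes, the block gave 6736 called in P1 against E15.5, 248 in P7 against P1 and 1295 in P14 against P1. It gave 1234 in P14 against P7 and 7503 in P14 against E15.5. In MB it gave 4939 against P7 and 7321 against P14, and over the 4 ages 8018. The block added a call for Chd4 in P14 against E15.5 and removed none. With coding length in place of exon length, the share of Chd5 among the NuRD ATPases was 4.72% at E15.5 and 0.390% in MB.

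With 3 libraries a group, the SE of a member's log2 fold change ran from 0.21 (Chd8) to 0.37 (Chd7). Differences of about that size could not be told from the spread between replicates, and larger ones also went uncalled. Examples are Chd1 in P14 against P7 (log2 -0.68, edgeR FDR = 0.0997) and Chd3 in P14 against P1 (log2 0.74, edgeR FDR = 0.0591). An uncalled member may thus have changed by more than the SE. Chd6 and Chd9 were not assigned in the start site table and have no value there.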
